A study of Caenorhabditis elegans with 6 samples.

Results

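The 10 genes lin-14, lin-46, lin-41, lin-42, blmp-1, dre-1, alg-1, alg-2, ain-1 and apl-1 belong to or surround the heterochronic pathway of the nematode Caenorhabditis elegans, most of them acting before lin-29. They were taken by name from tables that list 41573 genes, and all 10 were among the 13045 genes with enough counts to be tested. Their messenger RNA was compared between 3 libraries of the strain hs::lin-29 and 3 libraries of the strain hs::control, both made from whole L3 larvae. Animals of both strains were grown at 20 °C on OP50 bacteria from a synchronized L1 start, kept for 30 min at 37 °C when they had fed for 28 h, and frozen after 1 h back at growth temperature. By the stated design the heat shock drives lin-29 early in the hs::lin-29 strain. The labels do not describe the transgene of either strain further, and no library without heat shock is analysed here, so every value is from heat-shocked animals. The comparison asks whether a surplus of lin-29 alters the messages of the genes that time it.

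The heterochronic pathway is a chain of regulators that tells cells of the larval skin which stage they are in. Early regulators such as lin-14 are silenced by microRNAs as larvae grow, later ones such as lin-41 hold lin-29 back, and LIN-29, a zinc finger transcription factor, then starts the adult program of the skin. The microRNAs act through Argonaute proteins, and a parallel set of genes related to circadian clock and molting genes keeps the steps in time with the molts. The RNA came from whole bodies, so fewer cells of a type and less RNA per cell cannot be told apart, and a change limited to the skin is diluted by other tissues.

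The libraries held between 14553652 and 17303509 counts assigned to genes. Genes of the epidermis and seam, intestine, muscle, neurons and germline were all detected, and the summed level of each of these 5 marker lists overlapped between the strains. Such a sum follows the most abundant genes of its list and can hide changes in the others. Some genes are listed at 0 in every library, among them the muscle genes unc-15 and lev-11, although the muscle myosin gene unc-54 averaged 7622 and 7782 CPM (gene counts relative to the TMM-scaled library total) in hs::lin-29 and hs::control. A listed 0 is therefore not read as absence. In hs::lin-29 replicates 1 to 3 the level of lin-29 itself was 131, 517 and 339 CPM, against 49.8, 43.8 and 45.8 CPM in hs::control. The hs::lin-29 libraries were all above the controls but differed widely, replicate 1 having the smallest excess. hs::control replicate 1 stood apart from the other controls on the second principal component, at -27.9 against 15.6 and 9.91. The labels number the samples as trials, and nothing in them names separate cultures, so p-values here rest on a spread between libraries that may be only technical.

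None of the 10 genes passed edgeR's quasi-likelihood test at a Benjamini-Hochberg adjusted p of 0.05, where 6.60% of all 13045 genes tested did, 2.46% higher and 4.14% lower in hs::lin-29. DESeq2 and limma-voom also passed none of the 10. At an unadjusted p of 0.05 each of the 3 tools passed lin-46 alone, 1 of 10, where edgeR passed 18.2% of all genes. Of the log2 fold changes (hs::lin-29 over hs::control), 6 were below 0 and 4 above, with a median of -0.07 against 0.01 over all genes tested. The median size of change regardless of sign was 0.12 on the log2 scale for the 10 genes and 0.17 for all genes. On TMM-scaled CPM the libraries of the strains did not overlap for 1 of the 10, again lin-46, where this held for 23.2% of all genes.

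**Figure D1:**
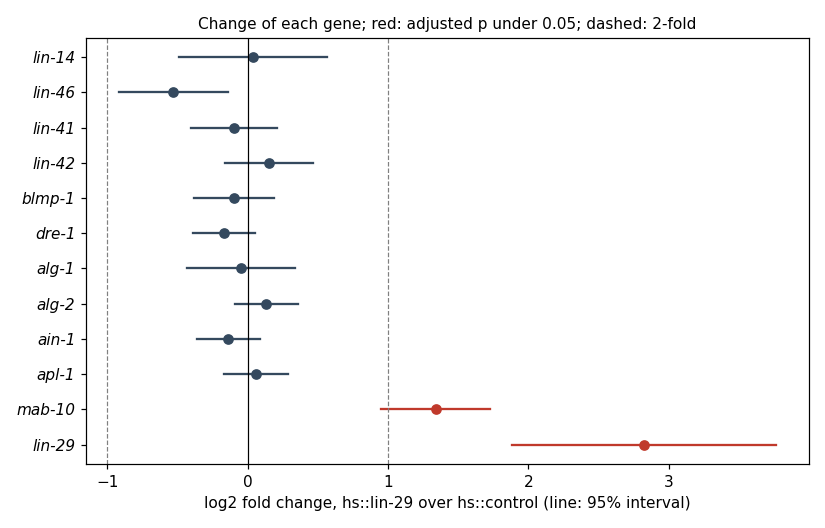
Log2 fold change of each gene in hs::lin-29 over hs::control (horizontal axis) with its 95% interval, from 3 libraries per strain; dashed lines mark 2-fold. The intervals of all 10 regulators lie inside the dashed lines and that of lin-46 alone leaves out 0, while mab-10 and lin-29, which are drawn for scale, lie to the right at 1.34 and 2.82.

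The 95% interval of the difference excluded a 2-fold change in either direction for all 10 genes, and a 1.5-fold change in either direction for 9 of them, the exception being lin-46. Standard errors (SE) of the log2 fold change ran from 0.10 for dre-1 to 0.23 for lin-14, which has the fewest counts. A p-value that misses the threshold does not show that the strains were alike, and shifts smaller than these bounds remain possible for each gene.

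**Figure D2:**
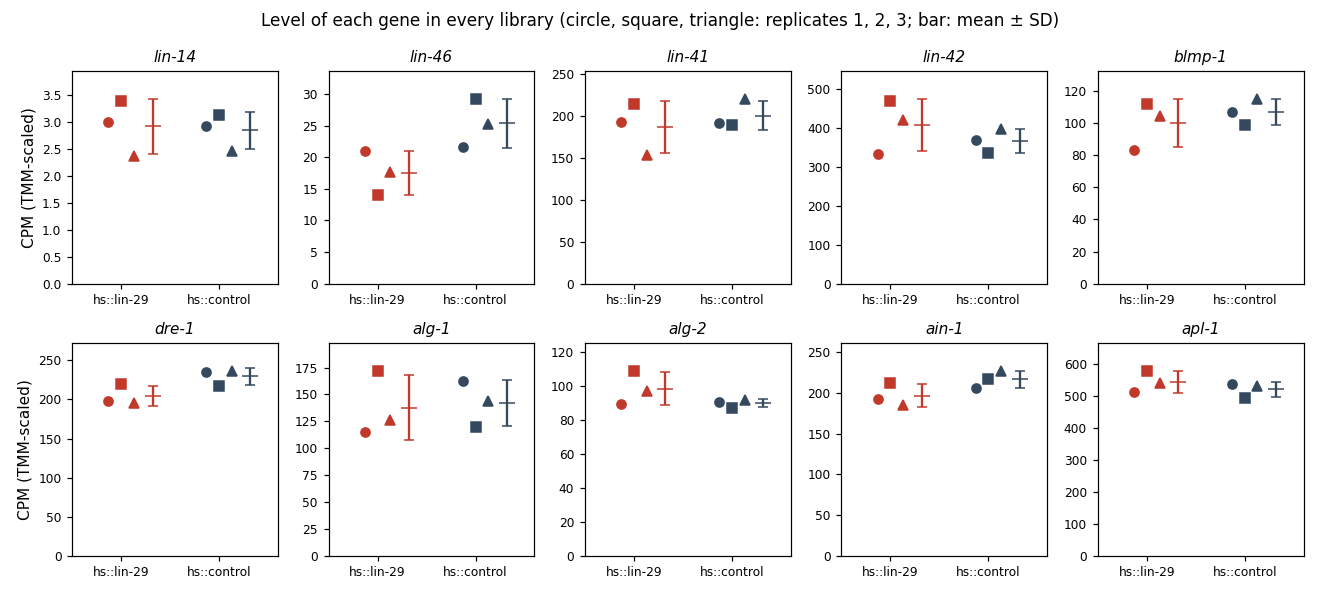
CPM of each of the 10 genes (vertical axis from 0) in the 3 hs::lin-29 and the 3 hs::control libraries, with the mean and SD of each strain beside the points. The points of the strains overlap in every panel but that of lin-46, where the hs::lin-29 libraries lie between 13.96 and 20.9 CPM and the hs::control libraries between 21.6 and 29.3 CPM.

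lin-46 had the largest log2 fold change of the 10 regardless of sign. It encodes a protein related to gephyrin that is opposed by LIN-28 and limits the transcription factor HBL-1. lin-46 had values of 20.9, 13.96 and 17.7 CPM in the hs::lin-29 libraries (replicates 1 to 3), against 21.6, 29.3 and 25.2 CPM in hs::control replicates 1 to 3. The strains did not overlap on this scale, although hs::lin-29 replicate 1 and hs::control replicate 1 came within 1 CPM of each other. These 2 libraries had 349 and 303 lin-46 reads among 16391053 and 14894654 gene counts. Without the TMM factors their order turns and the strains overlap. The log2 fold change of lin-46 was -0.53 (SE 0.17, 95% interval -0.92 to -0.14), which is 1.44-fold lower, with an unadjusted p of 0.01287 and an adjusted p of 0.1201 by edgeR. The counts behind it ran from 194 to 534 reads. On the scaled values the exact two-sided permutation test over the 6 libraries gave p = 0.1, the smallest that 3 against 3 allows. The adjusted p fell to 0.03504 with no filter on low counts, and ran from 0.03504 to 0.3418 over all alternatives.

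lin-14, which encodes a nuclear transcription factor of the first larval stages and is the classic target of the microRNA lin-4, had the fewest reads of the 10. It had 3.00, 3.38 and 2.37 CPM in the hs::lin-29 libraries (replicates 1 to 3), against 2.92, 3.13 and 2.46 CPM in hs::control, from 39 to 57 reads per library. The libraries of the strains overlapped fully. Its log2 fold change of 0.04 (SE 0.23) had a 95% interval of -0.49 to 0.57 and an adjusted p of 0.9649 by edgeR. Counting alone gives a coefficient of variation (CV) of 14.7% at this depth, close to the 17.6% and 11.9% seen among hs::lin-29 and hs::control libraries. lin-28, the RNA-binding partner gene of the early stages, had at most 4 reads in any library and was not tested.

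lin-41 encodes a TRIM-NHL RNA-binding protein that is silenced by the microRNA let-7 and in turn represses the messages of lin-29 and mab-10. Its message had values of 193, 214 and 154 CPM in the hs::lin-29 libraries (replicates 1 to 3), against 192, 189 and 221 CPM in hs::control. hs::lin-29 replicate 3 was below all controls and the others lay within their range, so the groups overlapped. This amounted to a log2 fold change of -0.10 (SE 0.14, 95% interval -0.41 to 0.21), with an adjusted p of 0.7958 by edgeR. Without hs::lin-29 replicate 3, the lowest library, the sign turned and the log2 fold change was 0.023.

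A list of 4 messages known to be bound by LIN-41 holds lin-29, mab-10, mab-3 and dmd-3. All 3 that could be tested passed and rose, where 6.60% of all genes passed and 2.46% passed and rose. The driven gene itself is among the 3, and the list was chosen with earlier results of these data known. The share is therefore not read as a result about LIN-41 targets, and dmd-3 had at most 1 read in any library. Reads of the transgene and the chromosomal lin-29 are not told apart here. mab-10, the gene of a LIN-29 cofactor, had a ratio to lin-41 of 0.648 ± 0.251 in hs::lin-29 and 0.232 ± 0.0369 in hs::control (SD, n = 3 each; exact permutation p = 0.1). mab-3, a DM-domain transcription factor gene of male development, had 4.38, 3.67 and 5.59 CPM in hs::lin-29, against 2.78, 2.08 and 2.07 CPM in hs::control. Its log2 fold change was 0.99 (SE 0.24) with an adjusted p of 0.04575 by edgeR, and from 0.01614 to 0.1748 over the alternatives run. The call was lost without any 1 of 5 libraries, all but hs::control replicate 1, with library totals alone (0.05985) and with the trial number as a block (0.1074).

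lin-42 encodes a relative of the clock protein PERIOD whose message is known to cycle with the molts. It was measured at 333, 468 and 420 CPM in the hs::lin-29 libraries (replicates 1 to 3), against 367, 335 and 396 CPM in hs::control. Replicates 2 and 3 of hs::lin-29 were above every control and replicate 1 was below them all. Its log2 fold change of 0.15 (SE 0.14, 95% interval -0.16 to 0.47) was the largest rise in value among the 10, with an adjusted p of 0.6685 by edgeR. Worm relatives of other clock genes are kin-20, listed at 0 in every library, and tim-1, which stood at 68.0 ± 5.58 and 64.5 ± 2.11 CPM in hs::lin-29 and hs::control (SD, n = 3 each; adjusted p 0.7685 by edgeR).

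blmp-1 encodes a zinc finger transcription factor related to mammalian BLIMP-1 that opens chromatin of cycling genes in the skin. It had 83.2, 112 and 105 CPM in the hs::lin-29 libraries (replicates 1 to 3), against 107, 98.7 and 115 CPM in hs::control. Only hs::lin-29 replicate 1 fell outside the range of the controls. On the log2 scale the change was -0.10 (SE 0.13, 95% interval -0.38 to 0.19), with an adjusted p of 0.7798 by edgeR, and it turned to 0.0062 without that library.

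dre-1 encodes the F-box subunit of an SCF ubiquitin ligase that marks BLMP-1 for destruction. It had values of 199, 220 and 195 CPM in the hs::lin-29 libraries (replicates 1 to 3), against 236, 217 and 237 CPM in hs::control. The highest hs::lin-29 library passed the lowest control by a small margin, and the other hs::lin-29 libraries were below all controls. Its log2 fold change was -0.17 (SE 0.10, 95% interval -0.39 to 0.05), with an adjusted p of 0.4424 by edgeR. Of 8 genes for other parts of SCF ligases and their activation, all 8 were tested and none passed edgeR, DESeq2 or limma-voom, adjusted or at an unadjusted p of 0.05. Their log2 fold changes ran from -0.11 to 0.19, with a median of 0.03. cul-1, the scaffold gene, had the smallest p among them (log2 fold change 0.19, SE 0.09, adjusted p 0.3183), followed by ned-8, the gene of the peptide that activates cullins (0.11, SE 0.11, adjusted p 0.6939 by edgeR).

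Within a library a ratio of 2 genes does not depend on the scaling. Among the 45 pairs that can be made of the 10 genes, 9 had ratios that did not overlap between the strains, or 20.0%, where 25.6% of the pairs of all tested genes with a count in every library did not. The share is below that over all genes, so the number of separated pairs is not a result about the 10. Of the 9 separated pairs 1 held lin-46, its ratio to alg-2, and its ratios to the other genes of the 10 all overlapped. lin-42 over blmp-1, named after its values were seen, was 4.01, 4.17 and 4.01 in hs::lin-29 replicates 1 to 3, against 3.43, 3.40 and 3.43 in hs::control. It had an exact permutation p of 0.1, the smallest that 3 against 3 libraries allows, or 0.5 adjusted over the 45 pairs. No pair could have passed at this number of libraries, so the test cannot decide whether any of the ratios differs between the strains.

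alg-1 and alg-2 encode the Argonaute proteins that carry microRNAs in worms, and ain-1 encodes a GW182-type protein that binds them and brings about silencing. alg-1 had 115, 172 and 126 CPM in the hs::lin-29 libraries (replicates 1 to 3), against 163, 120 and 144 CPM in hs::control. It was the most variable of the 10 within hs::lin-29, and the groups overlapped over most of their range. This amounted to a log2 fold change of -0.05 (SE 0.17, 95% interval -0.43 to 0.34), with an adjusted p of 0.9314 by edgeR. Its sign turned without hs::lin-29 replicates 1 or 3 and without hs::control replicate 1.

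alg-2 had 89.4, 109 and 97.0 CPM in the hs::lin-29 libraries (replicates 1 to 3), against 90.7, 87.1 and 91.5 CPM in hs::control. Replicates 2 and 3 of hs::lin-29 were above all controls and replicate 1 lay among them. On the log2 scale the change was 0.13 (SE 0.10, 95% interval -0.09 to 0.36), with an adjusted p of 0.585 by edgeR. The sum of the Argonaute genes was 236 ± 39.9 CPM in hs::lin-29 and 232 ± 23.6 CPM in hs::control (SD, n = 3 each; exact permutation p = 1). alg-1 over alg-2 was 1.39 ± 0.165 in hs::lin-29 and 1.58 ± 0.211 in hs::control (exact permutation p = 0.3). They are close paralogs, and reads with several alignments are kept apart in these tables, so stretches shared between them may be undercounted in each.

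ain-1 had 192, 213 and 185 CPM in the hs::lin-29 libraries (replicates 1 to 3), against 206, 217 and 227 CPM in hs::control. The highest hs::lin-29 library exceeded the lowest control, and the other hs::lin-29 libraries lay below all controls. Its log2 fold change was -0.14 (SE 0.10, 95% interval -0.37 to 0.08), with an adjusted p of 0.5572 by edgeR. Its relative ain-2 is listed at 0 in every library.

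Of 17 tested genes for microRNA processing and message decay, dcr-1 alone passed, a share near the 6.60% of all genes. It was higher in hs::lin-29, where 2.46% of all genes passed and rose. dcr-1 encodes Dicer, which cuts microRNA precursors. It had 135, 133 and 136 CPM in the hs::lin-29 libraries (replicates 1 to 3), against 102, 93.6 and 98.4 CPM in hs::control. The strains did not overlap, and all hs::lin-29 values lay within a narrow range. This amounted to a log2 fold change of 0.46 (SE 0.09), 1.37-fold higher, with an adjusted p of 0.01363 by edgeR, and from 0.0003315 to 0.08817 over the alternatives run. Leaving out hs::lin-29 replicate 3 ended the call (adjusted p 0.06234), as did leaving out hs::control replicate 2 (0.06343) or hs::control replicate 3 (0.0681) and fitting the trial number as a block (0.08817), while the log2 fold change stayed between 0.41 and 0.49. The nuclear processing genes drsh-1 and pash-1 did not pass, at log2 fold changes of 0.13 and 0.01, and the median over the 17 was 0.01. Of the same list pab-2 is listed at 0 and dcap-2 had at most 1 read in any library.

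apl-1 encodes the worm's relative of the amyloid precursor protein, and its activity in seam cells is known to depend on let-7 and other heterochronic genes. It had values of 510, 577 and 538 CPM in the hs::lin-29 libraries (replicates 1 to 3), against 537, 494 and 529 CPM in hs::control. The groups overlapped, and apl-1 had the lowest CV of the 10 within hs::lin-29, 6.25%, against 4.44% in hs::control. On the log2 scale the change was 0.06 (SE 0.10, 95% interval -0.17 to 0.29), with an adjusted p of 0.8434 by edgeR. Of 8 genes whose products are known to cut or bind such proteins, none passed edgeR, DESeq2 or limma-voom over all genes, and each tool passed 1 at an unadjusted p of 0.05, a share below the 18.2% of all genes by edgeR. That gene was feh-1, an adaptor gene that had 98.4, 64.2 and 68.6 CPM in hs::lin-29, against 83.9, 114 and 125 CPM in hs::control, a difference of -0.48 on the log2 scale (SE 0.19; edgeR adjusted p 0.2184). The next by p was aph-2, a gene of the gamma-secretase complex (-0.20, SE 0.09, adjusted p 0.2893).

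**Figure D3:**
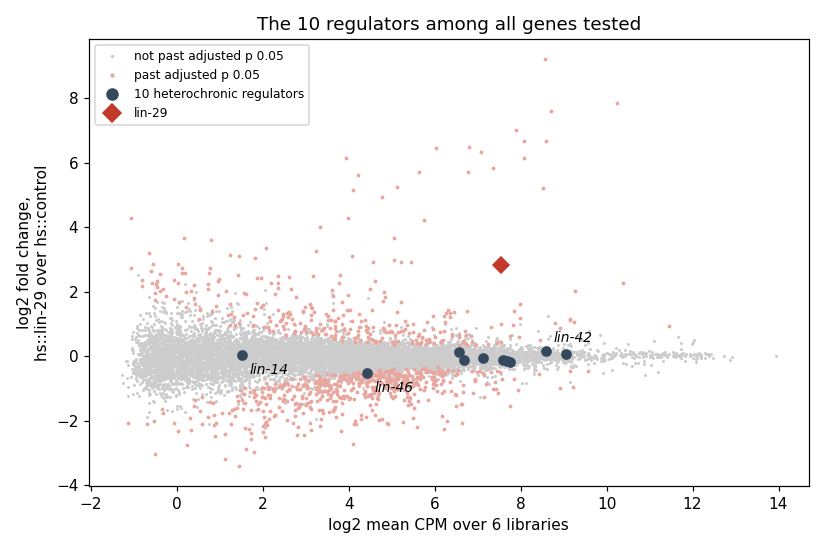
Log2 fold change (vertical axis) against the log2 of mean CPM over the 6 libraries (horizontal axis) for all 13045 genes tested, with the 10 regulators and lin-29 marked. The regulators lie along the zero line among the grey points, from lin-14 at the low end to apl-1 at the high end, with lin-46 the lowest of them and lin-29 far above.

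Levels can be ordered between genes per kilobase of annotated exon, using exon lengths of another genome build as an approximation. On this scale apl-1 was the most abundant of the 10, at 198 ± 12.3 CPM per kilobase in hs::lin-29 and 190 ± 8.41 in hs::control (SD, n = 3 each). It was followed by lin-42, ain-1, dre-1, lin-41, blmp-1, alg-2, alg-1, lin-46 and lin-14, in the same order of means in both strains. lin-14 was lowest, at 0.796 ± 0.140 CPM per kilobase in hs::lin-29 and 0.774 ± 0.0925 in hs::control. Neighbours in this order whose libraries overlapped were lin-41 with blmp-1, blmp-1 with alg-2 and alg-2 with alg-1 in hs::lin-29, and lin-42 with ain-1, alg-2 with alg-1 and alg-1 with lin-46 in hs::control.

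The members varied more among the hs::lin-29 libraries than among the controls. The CV was higher in hs::lin-29 for all 10 genes, which held for 48.1% of all genes tested. The median CV of the 10 was 15.7% in hs::lin-29 and 8.05% in hs::control, against 12.6% and 12.7% over all genes. In 9 of the 10, all but lin-46, hs::lin-29 replicate 2 was the highest of its strain, where this held for 32.6% of all genes tested. The 10 genes were read in the same 3 libraries of each strain, so these counts do not rest on 10 separate observations. Replicate 2 was the library with the most lin-29, but it also had the fewest gene counts of all, 14553652. On the second principal component it stood at -11.6, against 5.80 and 8.14 for hs::lin-29 replicates 1 and 3. Its deviations from the strain mean correlated at 0.39 with those of hs::control replicate 1, the highest value between libraries of different strains. The part of the lin-29 level and of these library traits in the pattern was not tested.

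**Figure D4:**
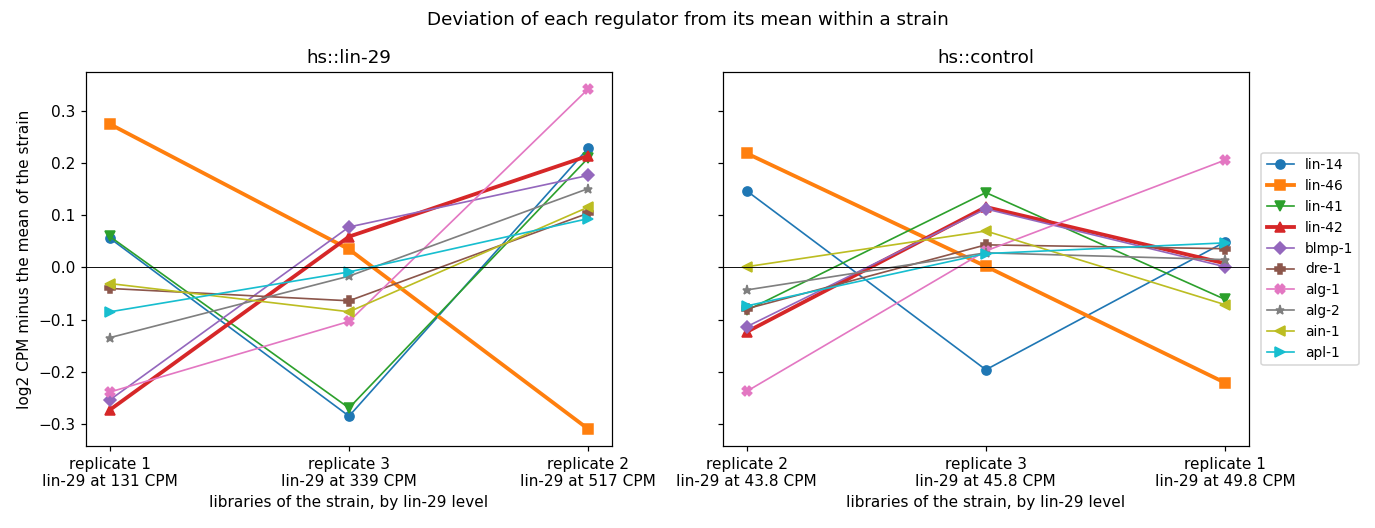
Deviation of each regulator from its strain mean on the log2 scale (vertical axis) in the 3 libraries of hs::lin-29 and of hs::control, set in the order of their lin-29 level (horizontal axis, not to scale). lin-46 (thick orange line) steps down in both panels, and alg-1 and apl-1 step up in both.

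Set in the order of their lin-29 level, the hs::lin-29 libraries ranked the same way for lin-42, blmp-1, apl-1, alg-1 and alg-2, 5 of 10, where 19.3% of all other genes did. They ranked the opposite way for lin-46, 1 of 10, where 17.7% did. The 10 genes were read in the same libraries, so these counts do not rest on separate observations either. The 5 genes are among the 9 named above that were highest in hs::lin-29 replicate 2. lin-46 also ran opposite to lin-29 within hs::control, as 5.83% of genes did in both strains, and apl-1 and alg-1 ran with lin-29 in both strains, as did 9.12% of genes. Over all 6 libraries lin-46 was in the exact reverse order of lin-29, which 87 of 13044 other genes were (0.667%). This order was looked for after the values were seen, and the lin-29 level of the controls spans only 43.8 to 49.8 CPM. It also depends on the TMM scaling. Without it hs::control replicate 1 no longer has the most lin-29 of its strain, and hs::lin-29 replicate 1 exceeds it in lin-46. hs::control replicate 1, which has the most lin-29 and the least lin-46 of its strain, was named above as apart from the other controls. The part of such differences between libraries in the order was not tested.

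Beyond the 10 genes, a wider list of 22 heterochronic names had 15 in the tables and 6 that could be tested. lin-29 rose by 2.82 on the log2 scale (SE 0.41; edgeR adjusted p 0.004621) and mab-10 by 1.34 (SE 0.17; edgeR adjusted p 0.00248), and the other 4 were sea-2, puf-9, nhl-2 and tim-1. sea-2, the gene of a zinc finger protein that acts on lin-28, had 122, 121 and 127 CPM in hs::lin-29, against 129, 154 and 175 CPM in hs::control. All hs::lin-29 values were below the controls, with a log2 fold change of -0.31 (SE 0.12) and an adjusted p of 0.1973 by edgeR, and from 0.04659 to 0.5158 over the alternatives run. It passed without hs::control replicate 1. The Pumilio gene puf-9 and the TRIM-NHL gene nhl-2 had log2 fold changes of -0.01 (SE 0.13) and -0.04 (SE 0.14). hbl-1, daf-12, lin-66, kin-20, ain-2, nhr-85, din-1 and daf-9 are listed at 0 in every library, and no level is read from them. The microRNA genes lin-4, let-7, mir-48, mir-84 and mir-241 were not analysed here. Of 3 tested relatives of lin-41 in the TRIM-NHL family, none passed edgeR, DESeq2 or limma-voom, adjusted or at an unadjusted p of 0.05. Those with the smallest p were ncl-1 (log2 fold change 0.17, SE 0.10) and nhl-1 (0.11, SE 0.09).

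**Figure D5:**
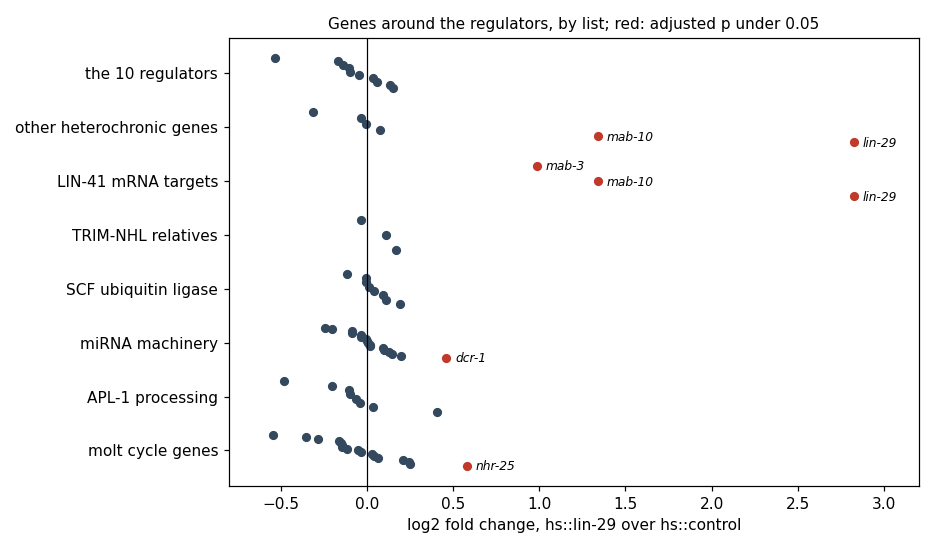
Log2 fold change in hs::lin-29 over hs::control (horizontal axis) of every tested gene, grouped by list, 1 point per gene, with genes past an adjusted p of 0.05 in red and named. The lists of tissue markers are not drawn. The 10 regulators lie between -0.53 and 0.15, and among the lists drawn lin-29, mab-10, mab-3, dcr-1 and nhr-25 are the red points.

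lin-42 and blmp-1 belong to the molting rhythm, so genes of that rhythm were read beside them. Of 17 molting genes tested, nhr-25 alone passed, a share near the 6.60% of all genes. This nuclear receptor gene had 63.9, 67.9 and 55.9 CPM in hs::lin-29, against 47.0, 33.7 and 44.9 CPM in hs::control. Its difference was 0.58 on the log2 scale (SE 0.14), and edgeR gave an adjusted p of 0.041, with 0.0002565 to 0.1324 over the alternatives. Its call was lost without any 1 of 5 libraries, all but hs::control replicate 1, and with the trial number as a block (0.08791). Without hs::lin-29 replicate 1 the gene of the list that passed was nas-36, an astacin protease gene, which was lower (log2 fold change -0.60, adjusted p 0.01829 by edgeR, against -0.35 and 0.3327 with all libraries). The summed level of the 17 ran from 3767 to 5309 CPM in hs::lin-29 and from 4151 to 5139 CPM in hs::control, and the log2 fold changes were negative for 10 of the 17 and had a median of -0.05. The part of differences in molting phase between libraries in the values above was not tested.

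Marker genes of the tissues in a whole larva were read beside these values. Of 12 tested epidermis and seam markers none passed edgeR, DESeq2 or limma-voom over all genes, and each tool passed 3 at an unadjusted p of 0.05, where edgeR passed 18.2% of all genes. The 2 with the smallest p were bro-1, a seam cell proliferation gene, at 3.18, 4.39 and 2.85 CPM in hs::lin-29 against 5.63, 5.87 and 5.21 CPM in hs::control, and ceh-16, the engrailed gene of the seam, at 3.54, 2.66 and 1.88 CPM in hs::lin-29 against 3.70, 4.83 and 6.94 CPM in hs::control. Their adjusted p by edgeR was 0.1008 and 0.1221, and with no filter on low counts ceh-16 passed (0.03069). The third, rnt-1, the gene of a RUNX factor of seam cells, lay the other way, at 9.48, 6.62 and 7.47 CPM in hs::lin-29 against 3.70, 5.76 and 6.05 CPM in hs::control (adjusted p 0.1895 by edgeR). The sum of the 12 was 712 to 883 CPM in hs::lin-29 and 774 to 907 CPM in hs::control, and elt-1, elt-3 and ajm-1 of the list stand at 0. Among 9 intestine markers elt-2, the gene of the intestinal GATA factor, alone passed, where 6.60% of all genes passed and 2.46% passed and rose. It rose by 1.43 on the log2 scale (SE 0.18, edgeR adjusted p 0.00256), and the sum of the 9 overlapped between the strains.

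lin-41, alg-1 and alg-2 are also active in the germline. Of 8 tested germline markers none passed any of the 3 tools over all genes, and each passed 2 at an unadjusted p of 0.05, rme-2 and puf-5, where edgeR passed 18.2% of all genes. These oocyte genes had log2 fold changes of 0.55 (SE 0.18, adjusted p 0.1221 by edgeR) and 0.61 (SE 0.24, adjusted p 0.2032). Without hs::lin-29 replicate 3 none of the 8 was past an unadjusted p of 0.05, and the median log2 fold change of the list was 0.04, against 0.26 with all libraries. The summed germline level was 291 to 374 CPM in hs::lin-29 and 290 to 363 CPM in hs::control. Of the list pgl-1, pgl-3, him-8 and nos-3 stand at 0. No muscle or neuron marker of the 4 and 8 tested passed any of the 3 tools, adjusted or at an unadjusted p of 0.05. By p the first were myo-3 and unc-89 for muscle (log2 fold changes 0.04 and -0.03) and unc-64 and egl-21 for neurons (0.39 and 0.14). All 8 neuron markers had log2 fold changes above 0, from 0.02 to 0.39, with a median of 0.13.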

How the data were processed

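RNA from 6 samples was sequenced, 3 per strain. Per the labels' protocols, frozen worm pellets were homogenized, RNA was prepared with a Zymo kit and a NEBNext Ultra kit made the libraries. Each library has 1 deposited table of unnormalized read counts per gene, as the authors made it. The submitters' processing notes list the build ce10 and the tools STAR 2.5.2b, HTSeq 0.6.1p1, bcl2fastq 2.18, R 3.3.2 and DESeq2 1.12.3, without roles. Which annotation release and strand setting were used is not given in the sources used here. Between 39.7% and 41.8% of each table's counts stood in closing lines that name no gene and entered neither library sizes nor tests.

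The annotation used here, Ensembl's for WBcel235, is another build, so it gave only exon lengths, chromosomes and overlaps. By symbol, 38131 of the 41573 gene names matched the name table. In this annotation lin-41 and blmp-1 lie on chromosome I, lin-42 and alg-2 on II, lin-46 and dre-1 on V, and lin-14, apl-1, alg-1 and ain-1 on X, all protein-coding. No exon of lin-41, lin-42, lin-46, blmp-1, dre-1, alg-2 or ain-1 overlaps another gene there. lin-14 and alg-1 hold snoRNA genes on the same strand (5.65% and 1.43% of exon bases) and apl-1 meets a gene on the opposite strand over 0.182%. Without a stated strand setting such reads cannot be told apart.

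With edgeR 4.0.16, genes passing filterByExpr (minimum count 10 scaled to library size, total 15) were given TMM factors and a robust quasi-likelihood F test, two-sided, on strain alone, with Benjamini-Hochberg adjustment over all 13045 genes at 0.05. The SE is the size of the log2 fold change over the root of F, and 95% intervals use the t quantile at the fit's total degrees of freedom. Both are approximate. CPM are given as mean ± SD over 3 libraries, and exact permutation tests over libraries were two-sided on log2 values with 20 splits. Libraries of a strain differed well beyond sampling noise (a chi-square of at least 11.4 per degree of freedom), so none were merged. Alternatives were other scalings and filters, DESeq2 1.42.0, limma-voom (limma 3.58.1), no robust estimation, scaling without the 20 most abundant genes, a replicate block and each library left out.

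The 10 genes and all lists were chosen with earlier results of these data known. Named were the 10 genes, lin-29, each gene of another list that passed or else the 2 with the smallest p, and genes with few or no counts. For lin-46, lin-42 and lin-41 the 3 genes with the closest profile and 5 CPM or more on average were added. drsh-1, pash-1, rnt-1, nas-36, sea-2, puf-9, nhl-2, tim-1, unc-54 and the genes given as ratios fall outside this rule and were named after their values were seen. R 4.3.3, Python 3.11.15 and matplotlib 3.10.9 were used.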

Additional observations from a re-analysis of the deposited data

How the results depend on the processing

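The count of the 10 genes past the threshold was 0 under 15 of the 16 alternatives and 1 with no filter on low counts, where lin-46 passed; no other of the 10 passed anywhere. Over the left-out libraries the count of all genes past the threshold ran from 459 to 894 (861 with all 6). Leaving out hs::lin-29 replicate 3 gave 547, hs::control replicate 2 gave 490 and hs::control replicate 3 gave 459. The count of other heterochronic genes ran from 2 to 3, and those of microRNA machinery and of molting genes from 0 to 1 each. With no filter on low counts the other heterochronic genes past the threshold were 1, since lin-29 then had an adjusted p of 0.1017. The sign of a log2 fold change turned for 4 of the 10, each time with a library left out, and over the left-out libraries these values ran from -0.19 to 0.0062 for blmp-1, from -0.21 to 0.023 for lin-41, from -0.24 to 0.063 for alg-1 and from -0.078 to 0.17 for lin-14. The median of the 10 ran from -0.19 to 0.02. The cause of these shifts was not tested. The sign of lin-46, lin-42, dre-1, ain-1, alg-2 and apl-1 held under all 16.

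With the trial number as a replicate block, 556 genes passed, 206 higher and 350 lower, with 0 of the microRNA machinery and 0 of the molting genes, so that dcr-1 (adjusted p 0.08817), nhr-25 (0.08791) and mab-3 (0.1074) no longer passed, leaving 2 of the 3 tested LIN-41 targets; the 10 genes stayed at 0. Deviations of same-numbered libraries correlated at -0.09, -0.39 and 0.13, and no hs::lin-29 library correlated best with its own number. Deviations from a mean of 3 libraries depend on each other, so these values cannot tell whether the trials were paired. Depth limits lin-14 most, with 39 to 57 reads per library.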

Other observations

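Closest profiles were sought among 9082 tested genes whose mean reached 5 CPM, by the root mean square difference of log2 CPM centred on each gene's mean over the 6 libraries. The nearest to lin-46 were R05D7.5 (difference 0.07), C49C8.5 (0.08) and Y66D12A.24 (0.10). C49C8.5 and Y66D12A.24 fell, with log2 fold changes of -0.57 and -0.63 and adjusted p of 0.03011 and 0.02152 by edgeR. R05D7.5 had a log2 fold change of -0.48 and an adjusted p of 0.1555. The nearest to lin-42 were Y45G5AL.1, ent-2 and tag-275 (0.05 to 0.06), and the nearest to lin-41 were acr-8, F31D4.2 and C47E12.13 (0.05 to 0.07). None of these 6 passed the test, with adjusted p of 0.498 or more by edgeR. With 6 libraries a close profile can be found for most genes, and it says nothing of shared function.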
